A study of Mus musculus with 203 samples.

Results

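The 10 genes described here encode calcium-binding proteins of neurons: the buffers Calb1, Calb2 and Pvalb, the neuronal calcium sensors Hpca, Hpcal1, Ncald, Vsnl1 and Ncs1, and the NECAB proteins Necab1 and Necab2. They were chosen by name, and all 10 were found among the 24029 genes of the count table. They were examined in single neurons of the nucleus ambiguus (Amb), the brainstem nucleus that holds motor neurons of the heart, the airways and the throat. The neurons came from mice labelled C57BL/6, which the study's methods give as wild type C57BL/6NCrl, and all groups had a tracer injected by surgery under cold anesthesia with buprenorphine for pain. Cholera toxin B was injected at postnatal day 1, around the heart to label cardiac neurons or into the cricothyroid muscle of the larynx to label laryngeal neurons, and single labeled cell bodies were drawn from brainstem slices at postnatal days 2 to 4 and sequenced by Smart-seq2. By the deposited annotation, 53 cardiac neurons were ACP, 98 cardiac neurons were ACV and 52 neurons were laryngeal. The laryngeal neurons are called Larynx below.

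ACP and ACV were defined by clustering the same counts, and Calb1 is one of the genes by which the study tells ACP from ACV, so the values of these genes in ACP and ACV are descriptions. The labels give neither a mouse nor a plate for a neuron, so each type stands as 1 sample. No test between types was made, spreads are given over neurons and not over mice, and intervals cover counting error only.

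These proteins bind calcium through EF-hand loops. Buffers such as calbindin, calretinin and parvalbumin take up calcium that enters with an action potential and shape its time course, and they are used across the brain to tell classes of neurons apart. Sensors such as hippocalcin and NCS-1 change shape when they bind calcium and then act on membranes, receptors, channels or enzymes. Motor neurons differ in these proteins, and those of the cranial nuclei that drive the eye muscles are known for high parvalbumin and calbindin.

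Levels are read counts scaled to a total of 1000000 per neuron (CPM), with the ribosomal transcript Rn45s left out of the total. Rn45s took a median of 34.3% of the counts in ACP, 35.8% in ACV and 58.6% in Larynx. The counts outside Rn45s had medians of 1115375, 1120511 and 560892 and were lowest, at 118492, in a Larynx neuron. Slc18a3, the vesicular acetylcholine transporter of motor neurons, had a read in every neuron, and Chat, which makes acetylcholine, had a read in all ACP and ACV neurons and in 88.5% of Larynx neurons. RNA of other cells was also present. Mbp of oligodendrocytes had a read in 76.5% to 79.2% of the neurons of a type, Gja1 of astrocytes in 53.8% to 62.3%, Gad1 of inhibitory neurons in 47.96% to 61.5% and C1qc of microglia in 32.7% to 38.5%. A share of neurons with a read of a member is read beside these shares.

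**Figure D1:**
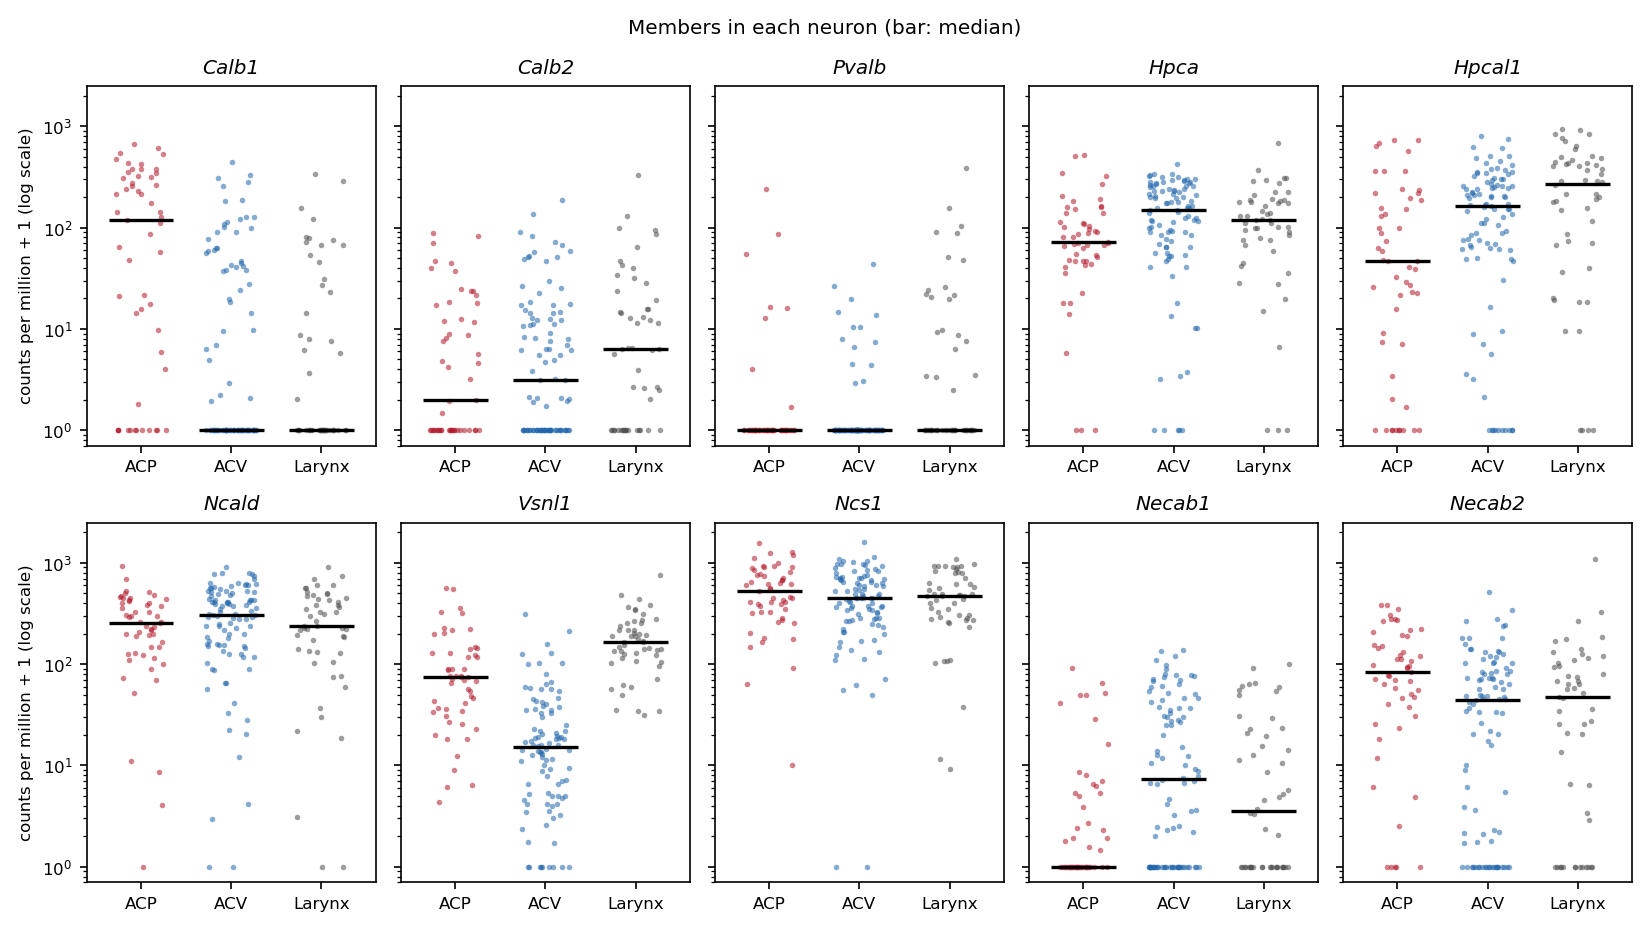
CPM plus 1 on a log axis for each of the 10 members, with 1 point per neuron in ACP (53), ACV (98) and Larynx (52) and a bar at the median. Ncs1 and Ncald lie at like levels in all 3 types, Vsnl1 is low in ACV with a median of 14.1, and Calb1 has a median of 117.8 in ACP and of 0 in the other types.

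Calb1, which encodes calbindin, was the buffer with the highest mean in ACP. It lies on chromosome 4 (mm10, 15881264 to 15908064, plus strand). In ACP the 53 neurons ran from 0 to a median of 117.8 and a highest of 669 CPM, with a mean of 175.8 ± 189.4 (SD, n = 53 neurons). In ACV the median was 0 and the highest 447, with a mean of 38.8 ± 79.8 (SD, n = 98), and in Larynx the median was 0 and the highest 334, with a mean of 29.9 ± 66.2 (SD, n = 52). The 3 types overlapped over the whole lower range, and a randomly paired ACP neuron was above an ACV neuron in 74.03% of all pairs, ties counted as one part to each side. A read of Calb1 was found in 41 of 53 ACP neurons (77.4%, exact binomial interval 63.8% to 87.7%), in 44 of 98 ACV neurons (44.9%, 34.8% to 55.3%) and in 23 of 52 Larynx neurons (44.2%, 30.5% to 58.7%). With every neuron thinned to 200000 counts, which left out 3 Larynx neurons, the shares were 77.4%, 39.8% and 36.7%. Thus 12 ACP neurons had no read of Calb1, while 37.8% of ACV neurons held at least 10 reads of it. The shares with a read in ACV and Larynx were below those of Gja1 in the same types (56.1% and 53.8%). In ACV, Calb1 had a Spearman correlation of 0.25 with Apoe and 0.34 with the number of genes detected. The study's staining found ACV neurons negative for the calbindin protein. The part of RNA from other cells in the Calb1 values was not tested. The log2 ratio of the means plus 1 CPM was 2.15 for ACP over ACV and 2.52 for ACP over Larynx, a fold of 4.44 and 5.72. In neurons with at most 1800 and at most 900 counts of Apoe, it was 2.67 and 2.92 for ACP over ACV. For ACP over Larynx it was then 2.66 and 2.51. Among genes with a mean of at least 10 CPM in either type, 1.22% had a larger ratio toward ACP over ACV and 0.663% a larger one toward ACP over Larynx. Between ACV and Larynx the log2 ratio was 0.36.

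Calb2 encodes calretinin, and it was low in all types. The gene lies on chromosome 8 (110137502 to 110168210, minus strand). Its median was 0.993 CPM in ACP, 2.16 in ACV and 5.31 in Larynx, and its highest values were 87.01, 188.1 and 328 CPM. The means, 11.8 ± 20.6, 14.2 ± 29.1 and 23.3 ± 51.8 CPM (SD over 53, 98 and 52 neurons), differed by less than the spread over neurons. A read was found in 54.7%, 59.2% and 67.3% of the neurons, shares like those of Gja1 and Gad1, and after thinning in 45.3%, 45.9% and 53.1%. In Larynx a single neuron gave 27.1% of the summed Calb2 level.

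Pvalb, which encodes parvalbumin, was the rarest member in cardiac neurons. It lies on chromosome 15 (78191114 to 78206400, minus strand). A read was found in 8 of 53 ACP neurons (15.1%, interval 6.75% to 27.6%) and in 14 of 98 ACV neurons (14.3%, 8.04% to 22.8%), but in 22 of 52 Larynx neurons (42.3%, 28.7% to 56.8%). Thinning left 11.3%, 12.2% and 38.8%. The median was 0 in all 3 types and the highest values were 237 in ACP, 42.8 in ACV and 390 CPM in Larynx. The means were 7.97 ± 35 in ACP, 1.65 ± 5.77 in ACV and 21.1 ± 60.6 CPM in Larynx (SD over neurons). The log2 ratio of ACV over Larynx was -3.06, the largest in size of all members and comparisons. In Larynx 1 neuron held 35.6% of the summed level, and without the highest neuron of each type this ratio was -2.74. With the size factors of DESeq2 it was -2.41, beside -2.63 for Vsnl1, so the rank depends on the scaling. The ratio of ACP over ACV, 1.76, rested on few neurons, since 1 ACP neuron held 56.2% of the summed level. Without the highest neuron of each type it was 1.03. The shares in cardiac neurons were below those of the microglial gene C1qc in the same neurons, and Gad1 and Gad2 of inhibitory neurons had their highest shares in Larynx as well (61.5% and 75.0%). The part of RNA from other cells in the Pvalb values was not tested.

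Counted together, the 3 buffers left few ACP and Larynx neurons without any. At least 1 read of Calb1, Calb2 or Pvalb was found in 84.9% of ACP, 69.4% of ACV and 88.5% of Larynx neurons. At a minimum of 10 reads the shares were 79.2%, 55.1% and 55.8%. Reads here were not thinned, and the median counts outside Rn45s were 560892 in Larynx and 1115375 in ACP. The same minimum thus asks for a higher CPM in most Larynx neurons, and the part of depth in these differences was not tested. The makeup differed. At that minimum 21 of 53 ACP neurons held Calb1 alone, against 15 of 98 ACV and 4 of 52 Larynx neurons, while Pvalb alone was held by 0, 2 and 7 neurons, and all 3 buffers by 2, 2 and 1.

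**Figure D2:**
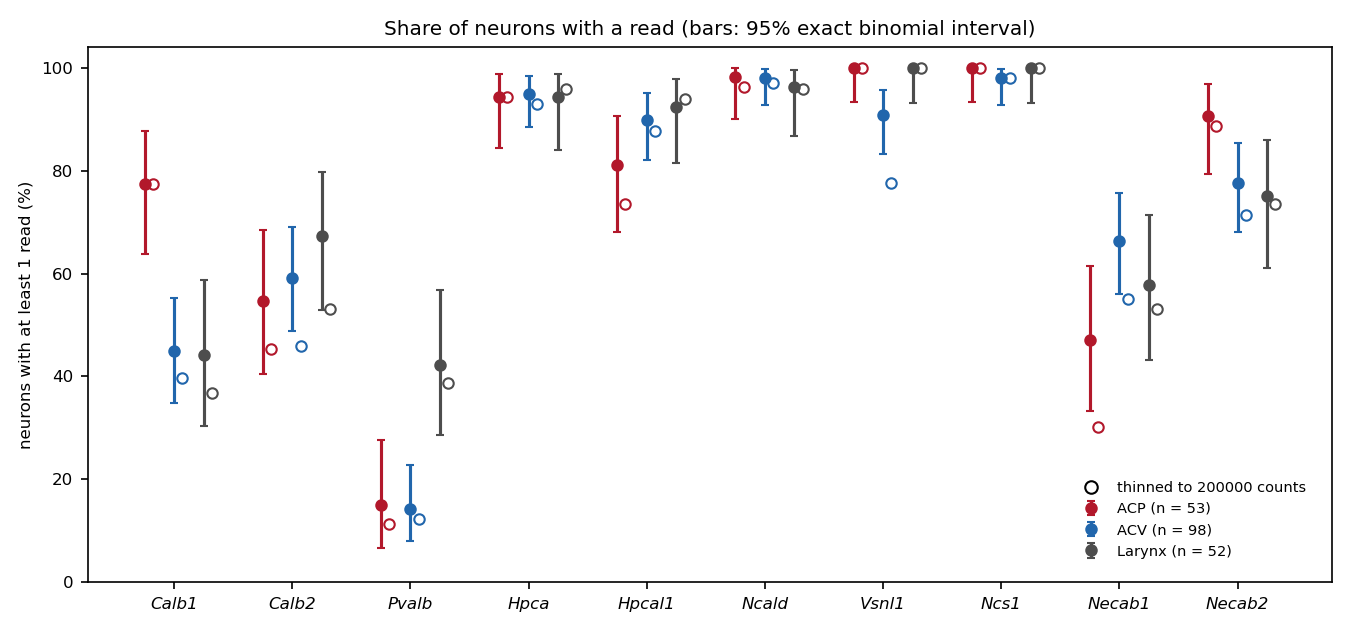
Share of neurons with at least 1 read of each member, in percent, with exact binomial intervals of 95% (filled points) and the share after each neuron was thinned to 200000 counts (open points). Calb1 at 77.4% in ACP and Pvalb at 42.3% in Larynx stand above the other types, and thinning moved Necab1 and Calb2 most among the rarer members.

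Vsnl1 encodes visinin-like 1, a sensor that moves to the membrane when calcium binds, and it was lowest in ACV and highest in Larynx. It lies on chromosome 12 (11325242 to 11436613, minus strand). ACP neurons ran from 3.40 to a median of 72.9 and a highest of 569 CPM. ACV neurons ran from 0 to a median of 14.1 and a highest of 309 CPM. Larynx neurons ran from 30.4 to a median of 163.3 and a highest of 761 CPM. No Larynx or ACP neuron was without a read, whereas 9 of 98 ACV neurons were. After thinning, the share of ACV neurons with a read was 77.6% in place of 90.8%. The means were 109.96 ± 122.6 (SD, n = 53), 28.9 ± 45.9 (SD, n = 98) and 190.7 ± 132.3 (SD, n = 52) CPM. The ranges of the types overlapped, but a Larynx neuron was above an ACV neuron in 94.9% of all pairs, and an ACP neuron was above an ACV neuron in 82.3%. A Larynx neuron was above an ACP neuron in 74.1%. The log2 ratio was 1.89 for ACP over ACV, -0.79 for ACP over Larynx (-1.15 with medians) and -2.68 for ACV over Larynx. That last difference, -161.8 CPM, was the only one of the 30 differences in means, 10 members in 3 comparisons, that exceeded the larger SD of its 2 types.

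Hpcal1, whose product is hippocalcin-like 1, was the most unequal of the other sensors. The gene lies on chromosome 12 (17690856 to 17791933, plus strand). Its median was 45.4 CPM in ACP, 162.04 in ACV and 271 in Larynx, and its highest values were alike at 737, 793 and 938 CPM. The means were 136.02 ± 201.2, 188.9 ± 171.3 and 302 ± 264 CPM (SD over 53, 98 and 52 neurons). Neurons without a read numbered 10 of 53 in ACP, 10 of 98 in ACV and 4 of 52 in Larynx, so each type held them beside high values. The log2 ratio of ACP over Larynx was -1.15, and with Rn45s counted in the totals it was -0.66.

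Hpca, Ncald and Ncs1 were found in nearly all neurons. Hpca encodes hippocalcin, a sensor best known from hippocampal pyramidal neurons, and had medians of 71.7 in ACP, 147.8 in ACV and 117.8 CPM in Larynx. Ncald encodes neurocalcin delta and had medians of 251, 307 and 237 CPM. Ncs1, the sensor NCS-1 or frequenin, had the highest medians of the 10 members in CPM, at 528, 448 and 467, and the means were 572 ± 344, 496 ± 303 and 494 ± 286 CPM. Its log2 ratio was 0.20 for ACP over ACV, 0.21 for ACP over Larynx and 0.01 for ACV over Larynx. Among all neurons, 2 lacked a read of Ncs1, both in ACV. The ratios of mean CPM of Hpca, Ncald and Ncs1 were each under 2-fold in all 3 comparisons. Hpca was lower in ACP than in ACV by a log2 ratio of -0.51, and by -1.03, past 2-fold, where medians were compared.

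RefSeq promoter sequences (GRCm38.p6) were matched by symbol for 6 of the 10 members, namely Pvalb, Hpca, Hpcal1, Vsnl1, Ncs1 and Necab2, and not for Calb1, Calb2, Ncald and Necab1. Those shown are Vsnl1, the sensor that differed most between types, Ncs1, the sensor that differed least, and Pvalb, the buffer with the largest ratio of Larynx over ACV. Each is the 250 bases before the more upstream of the starts listed, with a further start each for Vsnl1 and Pvalb, 5′ to 3′ on the strand of the gene. Capitals mark the letters GGGCGG (GC box) and CCAAT on either strand, in which the reverse complement counts as well. TATAAA and TGACGTCA were also searched and were in none of the windows shown.
Vsnl1, chr12:11436579-11436828, minus strand: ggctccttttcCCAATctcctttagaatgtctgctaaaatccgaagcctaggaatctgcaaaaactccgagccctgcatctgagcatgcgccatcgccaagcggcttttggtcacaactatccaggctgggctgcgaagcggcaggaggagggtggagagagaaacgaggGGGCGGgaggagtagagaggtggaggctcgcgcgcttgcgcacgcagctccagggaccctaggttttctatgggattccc
Ncs1, chr2:31245673-31245922, plus strand: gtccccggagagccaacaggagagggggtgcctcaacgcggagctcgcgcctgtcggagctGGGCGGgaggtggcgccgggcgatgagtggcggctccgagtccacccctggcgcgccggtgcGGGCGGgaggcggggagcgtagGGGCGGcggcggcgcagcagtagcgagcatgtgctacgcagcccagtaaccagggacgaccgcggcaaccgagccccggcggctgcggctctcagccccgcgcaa
Pvalb, chr15:78206401-78206650, minus strand: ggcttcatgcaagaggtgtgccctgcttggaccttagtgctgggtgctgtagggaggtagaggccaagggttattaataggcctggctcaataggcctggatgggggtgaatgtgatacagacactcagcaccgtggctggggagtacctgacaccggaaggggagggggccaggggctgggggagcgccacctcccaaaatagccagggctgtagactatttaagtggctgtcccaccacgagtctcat
The Vsnl1 window held 1 GC box and 1 CCAAT, and 58% of its bases were G or C. The Ncs1 window held 3 GC boxes and no CCAAT, at 75.6% G or C, and the Pvalb window held none of the 4 motifs, at 58.4%. Before the other listed start, Vsnl1 had no GC box at 41.6% G or C, and Pvalb had 71.6% G or C. Of 32851 promoter windows of the same length, 32.7% held GGGCGG, 33.8% CCAAT, 12.4% TATAAA and 1.55% TGACGTCA. A match describes the letters only.

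To compare members with each other, the mean CPM was divided by the length of the merged exons. Per kilobase, Ncs1 led in ACP with 122.8, followed by Hpcal1 with 80.2, Vsnl1 with 56.2 and Necab2 with 54.01 CPM per kb. In ACV, Hpcal1 and Ncs1 were close at 111.4 and 106.6 CPM per kb, and Vsnl1 stood at 14.8. In Larynx, Hpcal1 led with 178.3, followed by Ncs1 with 106.1 and Vsnl1 with 97.5 CPM per kb. In single neurons, Ncs1 was the highest of the 5 sensors per kilobase in 66.04% of ACP, 42.9% of ACV and 13.5% of Larynx neurons, and Hpcal1 was the highest in 20.8%, 41.8% and 57.7%. Pvalb, whose merged exons are the shortest, had a mean of 20.2 CPM per kb in Larynx, beside 13.4 for Calb2 and 6.17 for Calb1. These per-length levels assume that reads spread over all annotated exons.

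NECAB proteins pair an EF-hand part with an antibiotic biosynthesis monooxygenase domain, and NECAB2 is known to bind adenosine and metabotropic glutamate receptors. Necab1, on chromosome 4 (14952245 to 15149794, minus strand), was sparse. It had a median of 0 in ACP, 6.34 in ACV and 2.55 CPM in Larynx, and highest values of 89.6, 135.4 and 99.3 CPM. Its means were 8.27 ± 18.9, 23.97 ± 33.2 and 15.9 ± 25.3 CPM, and a read was found in 47.2%, 66.3% and 57.7% of the neurons. The log2 ratio of ACP over ACV was -1.43. Necab2, on chromosome 8 (119446719 to 119472640, plus strand), went the other way between the cardiac types. Its medians were 83.1 in ACP, 43.6 in ACV and 45.9 CPM in Larynx, with a read in 90.6%, 77.6% and 75.0% of the neurons. The means were 113.2 ± 104.8, 63.9 ± 84.1 and 80.2 ± 157.8 CPM, and the log2 ratio of ACP over ACV was 0.81. In Larynx 1 neuron at 1080 CPM gave 25.9% of the summed Necab2 level, and without the highest neuron of each type the ratio of ACP over Larynx went from 0.49 to 0.82.

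Across the 3 comparisons, 9 of the 30 member ratios were at least 2-fold. Between ACP and ACV, 3 members were at least 2-fold higher in ACP (Calb1, Vsnl1 and Pvalb), where 7.55% of the 13356 genes with a read in at least 10% of either type were, and 1 was higher in ACV (Necab1), where 6.31% of genes were. Between ACP and Larynx, 1 member was at least 2-fold higher in ACP (Calb1, against 8.09% of 13256 genes) and 2 were higher in Larynx (Hpcal1 and Pvalb, against 10.1%). The ratio of Pvalb in that comparison was -1.30, and it was under 2-fold when thinned (-0.73), in neurons with at least 400000 counts (-0.96), with Rn45s in the totals (-0.74) and with medians (0.00). Between ACV and Larynx, none of the 10 was at least 2-fold higher in ACV, against 7.87% of 13297 genes, and 2 were higher in Larynx (Pvalb and Vsnl1, against 11.8%). The median size of the log2 ratio over the 10 members was 0.66, 0.83 and 0.46 in the 3 comparisons, beside 0.35, 0.43 and 0.47 over all genes. The comparisons share their types, so these counts are not independent of each other. The 10 members summed to a mean of 1519 ± 564 CPM in ACP, 1341 ± 547 in ACV and 1589 ± 569 in Larynx, and Ncs1 made up 37.6%, 36.99% and 31.1% of that sum.

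**Figure D3:**
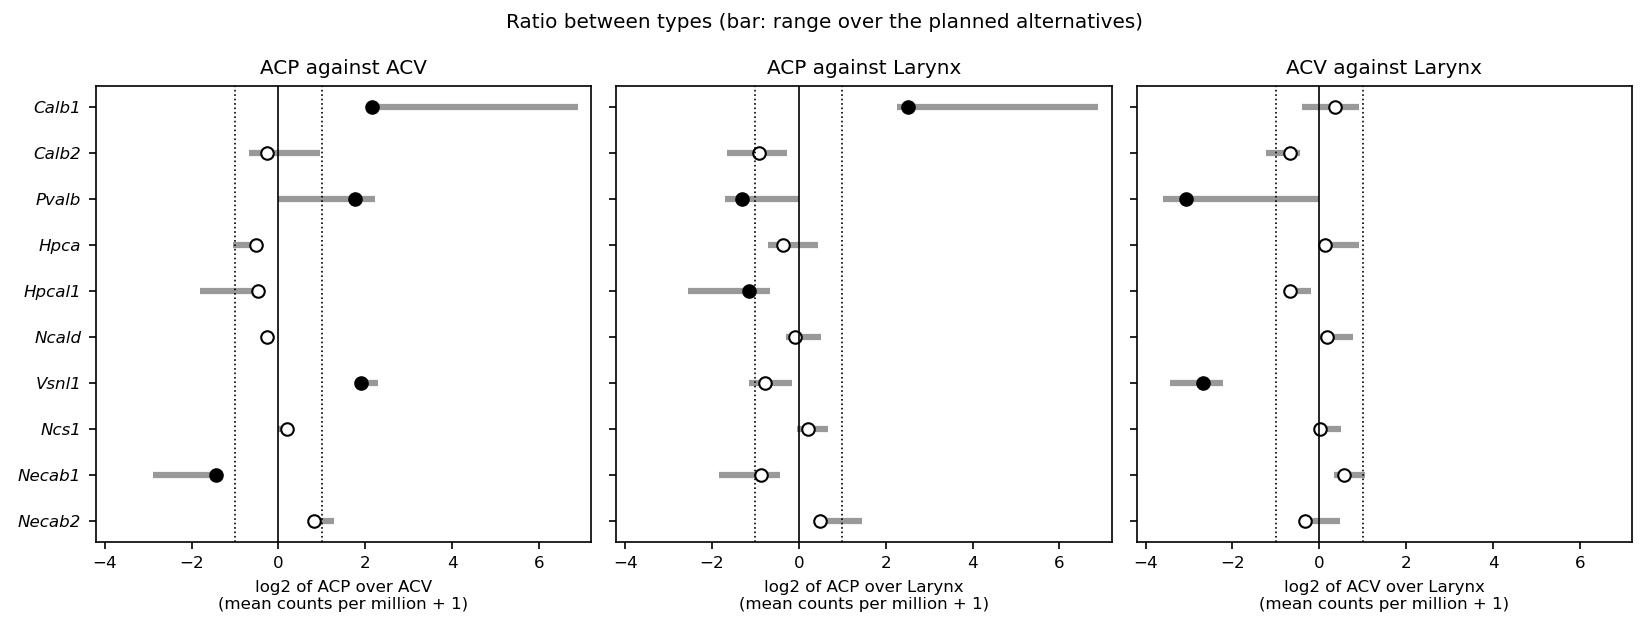
Log2 ratio of mean CPM plus 1 for each member in the 3 comparisons, with filled points at 2-fold or more, open points under it, dotted lines at 2-fold and gray bars for the range over the processing alternatives. Vsnl1 stays past 2-fold in ACP over ACV and in Larynx over ACV throughout, from 1.80 to 2.29 and from -3.44 to -2.21, whereas the bars of Pvalb reach 0 where medians were compared.

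The order of the types thus differed from member to member. Calb1, Necab2 and Ncs1 had their highest mean in ACP, Necab1, Hpca and Ncald in ACV, and Vsnl1, Hpcal1, Pvalb and Calb2 in Larynx, and these highest places held with Rn45s in the totals and with the factors of edgeR and DESeq2. Neighbors in these orders differed by less than the larger SD over neurons in every case. With at most 900 counts of Apoe, Ncs1 was no longer highest in ACP. Its log2 ratio was then -0.013 for ACP over ACV and -0.043 for ACP over Larynx. Markers of other cells did not follow a single order either. The summed astrocyte markers had medians of 1176 in ACP, 975 in ACV and 1130 CPM in Larynx, with all 6 genes read in each type, and Apoe alone reached 45046 counts in 1 ACV neuron. The 4 markers of inhibitory neurons summed to medians of 28.4, 9.64 and 58.2 CPM and the 3 of glutamatergic neurons to 9.56, 9.68 and 79.9 CPM, both highest in Larynx, where Vsnl1, Hpcal1, Pvalb and Calb2 were also highest. The part of these cells in the members' values was not tested. With the 39 neurons over 1800 counts of Apoe left out, Vsnl1 remained past 2-fold with log2 ratios of 1.84 for ACP over ACV and -2.82 for ACV over Larynx.

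Genes of the same family and pathway were taken as fixed lists. Of 25 other EF-hand buffers and sensors, 21 passed the detection minimum between ACP and ACV, and 2 were at least 2-fold higher in ACP and 2 in ACV, where 7.55% and 6.31% of all genes were. Necab3, the third NECAB gene, had means of 26.6 in ACP, 10.2 in ACV and 47.2 CPM in Larynx. Kcnip3, which encodes the potassium channel partner and repressor DREAM, had 29.9, 11.7 and 46.7 CPM. These orders of types are the order of Vsnl1. S100a11 was higher in ACV, at 101.8 CPM against 47.8 in ACP and 42.5 in Larynx. Against Larynx, 4 of 21 were higher in Larynx and 0 in ACP, where 10.1% and 8.09% of all genes were, and 6 of 22 were higher in Larynx and 2 in ACV, where 11.8% and 7.87% of all genes were. With Rn45s counted in the totals, the ratios of all genes moved toward ACP and ACV. These counts were then 0 in Larynx and 0 in ACP, and 6 in Larynx and 5 in ACV. Of all genes, 3.02% were then higher in Larynx and 19.6% in ACP, and 4.52% in Larynx and 18.5% in ACV. Kcnip1, another Kv4 channel partner, had 51.9 in ACP and 149.02 CPM in Larynx, Caln1 had 36.6 and 100.5, and Cabp7 had 3.44 and 10.6. Cabp7 stood at 0.175 CPM in ACV, with a read in 2.04% of neurons. Calm2, which encodes the ubiquitous sensor calmodulin, was high in all types, with means of 2913, 3270 and 2798 CPM.

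Pumps and exchangers clear calcium from the cytoplasm. Of 15 pumps and exchangers, 12 passed the detection minimum, and none was at least 2-fold apart between ACP and ACV. Against Larynx, 3 were higher in Larynx and 0 in ACP, where 10.1% and 8.09% of all genes were, and 5 were higher in Larynx and 1 in ACV, where 11.8% and 7.87% of all genes were, with medians of the log2 ratio of -0.85 and -0.76 beside -0.03 and -0.02 over all genes. With Rn45s in the totals, 0 were higher in Larynx and 0 in ACP, and 3 were higher in Larynx and 2 in ACV. Of all genes, 3.02% and 19.6%, and 4.52% and 18.5%, were then higher in those types. The medians were -0.34 and -0.19 beside 0.52 and 0.45 over all genes. Atp2b1, a plasma membrane pump, had means of 466 in ACP, 363 in ACV and 1035 CPM in Larynx. Atp2b2 had 262 in ACP and 540 CPM in Larynx. Atp2a2, the pump of the endoplasmic reticulum, had 155.9 in ACV and 526 CPM in Larynx, with 288 CPM in ACP. Atp2b3 had 55.6 in ACV and 122.7 CPM in Larynx. Of 19 calmodulin partners and targets, all passed the minimum, and none was 2-fold apart between ACP and ACV. Against Larynx, 4 were higher in Larynx and 0 in ACP, and 2 were higher in Larynx and 0 in ACV, beside the same shares of all genes. With Rn45s in the totals, 1 was higher in Larynx and 2 in ACP, and 0 were higher in Larynx and 1 in ACV. Of all genes, 3.02% and 19.6%, and 4.52% and 18.5%, were higher in those types under that scaling. Camk1d had 18.1, 20.5 and 58.1 CPM in the 3 types, Camk4 had 58.1, 74.5 and 137.5 CPM, Camk2d had 127.6 in ACP and 274 CPM in Larynx, and Camk2n1, an inhibitor of CaMKII, had 40.001 in ACV and 88.97 CPM in Larynx.

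The members were next compared across neurons by the natural log of counts per 10000 plus 1. Over all neurons 44 of the 45 pairs had a Pearson correlation under 0.3 in size, whereas with Rn45s in the totals 6 pairs reached it. The exception was Calb1 with Necab2, at 0.36 (Spearman 0.33), and at 0.29 after each neuron was set against the mean of its type. With Rn45s in the totals it was 0.46, and the highest of the 6 was Ncald with Ncs1 at 0.52, in place of 0.29. Neurons of 1 type share their mice and plates to an unknown extent, so these correlations are descriptions. Within ACP, 4 of 45 pairs reached 0.4 in size, against 1 in ACV and 0 in Larynx, and the difference between types was not tested. Those 4 pairs in ACP were Calb1 with Necab2 (0.49), Hpcal1 with Vsnl1 (0.52), Hpca with Vsnl1 (0.44) and Calb1 with Hpcal1 (-0.43). ACP neurons high in Hpcal1 were thus more often high in Vsnl1 and low in Calb1, with Spearman values of 0.41 and -0.32. Without the 2 neurons farthest from the median of the first gene, the correlations were 0.57, 0.53, 0.25 and -0.43, so the pair of Hpca with Vsnl1 rested in part on 2 neurons. Among the 42 ACP neurons at or under 1800 counts of Apoe they were 0.46, 0.42, 0.26 and -0.39. Apoe itself had a Spearman correlation of -0.31 with Calb1, -0.42 with Necab2 and 0.23 with Hpcal1 in ACP. In ACV the pair was Ncald with Ncs1 (0.50), and both were also higher in ACV neurons with more counts outside Rn45s (Spearman 0.48 and 0.44). That pair was at 0.53 without the 2 farthest neurons. Among the 70 ACV neurons at or under 1800 counts of Apoe it was at 0.39, under the limit of 0.4.

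**Figure D4:**
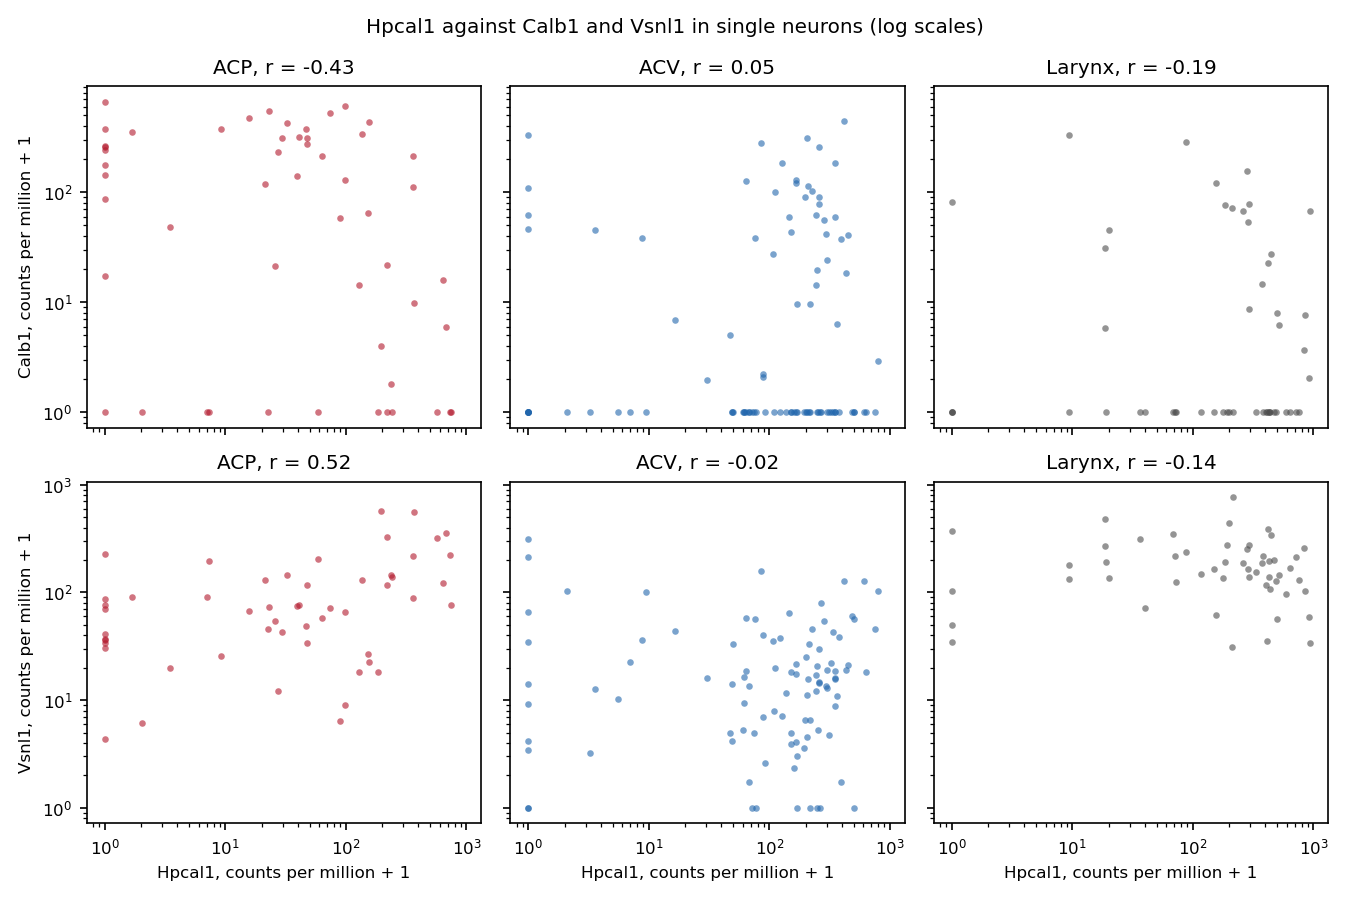
Hpcal1 on the horizontal axis against Calb1 (top) and Vsnl1 (bottom), in CPM plus 1 on log axes, with 1 point per neuron and the Pearson correlation of ln(counts per 10000 plus 1) above each panel. In ACP the correlations are -0.43 and 0.52, in ACV 0.05 and -0.02, and in Larynx -0.19 and -0.14.

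**Figure D5:**
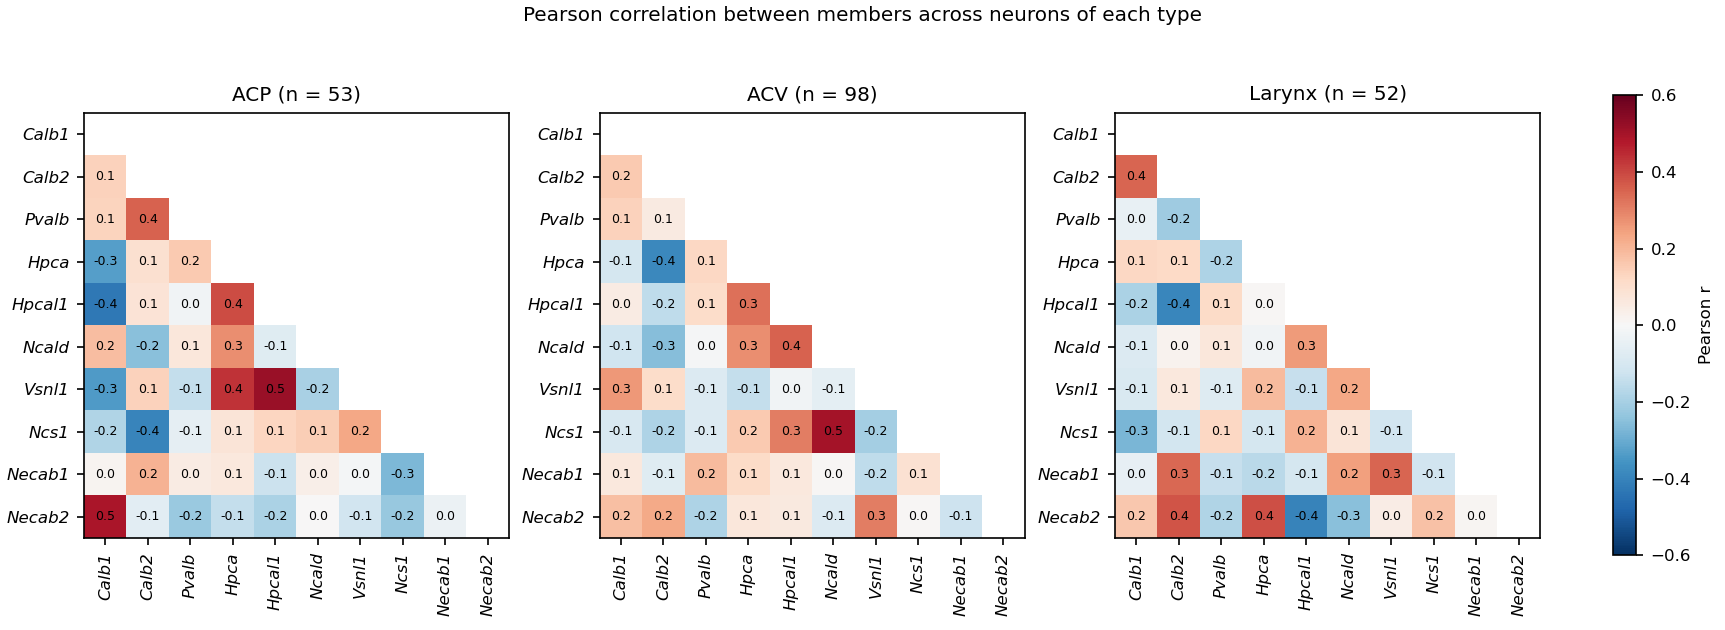
Pearson correlation of ln(counts per 10000 plus 1) for all 45 pairs of members within ACP, ACV and Larynx, colored from blue (negative) to red (positive). Values range from -0.43 to 0.52 in ACP, from -0.39 to 0.50 in ACV and from -0.40 to 0.39 in Larynx.

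The genes most like each member were sought among 7721 other genes with a read in at least 50% of all neurons. Vsnl1 was most like Sv2b, Chst2 and Sdr39u1, with Pearson correlations of 0.57, 0.57 and 0.56 over all neurons. They were 0.30, 0.41 and 0.28 after each neuron was set against the mean of its type. Sv2b had means of 84.3 in ACP, 11.98 in ACV and 193.01 CPM in Larynx. Calb1 was most like Klhl13 (0.51), Dgkb (0.43) and Tenm1 (0.42), and these were 0.37, 0.24 and 0.24 when set against type means. In ACP, ACV and Larynx, Klhl13 had means of 284, 75.9 and 104.2 CPM, Dgkb of 235, 68.7 and 37.1, and Tenm1 of 119.9, 17.97 and 26.7. Klhl13 was also among those most like Necab2 (0.35), after Hap1 (0.37) and Calb1 itself. Hpcal1 was most like Tagln2 (0.47), Acly (0.44) and Pmp22 (0.44), and Pmp22 had means of 29.5, 47.2 and 265 CPM. For Hpca the 3 were Sult4a1 (0.40), Snap25 (0.39) and Calm2 (0.38), and for Ncald they were Ywhaz (0.46), Calm2 (0.45) and Rnf14 (0.45). For Calb2 they were Tcf7l2 (0.42), Camk2a (0.38) and Atp5e (0.37). Ncs1 was most like Dpysl2 (0.42), Cend1 (0.40) and Cdk16 (0.39), and Necab1 was most like Faap100, at 0.27 the weakest first match of all.

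Some reads could not be told apart from those of other transcripts. Of all 75-base stretches of the members' transcripts, the length of a read, no stretch was shared between members. Necab1 shared 6.51% of its stretches with the antisense gene Gm11837, Ncald shared 4.197% with Gm28221 and Gm49397, Hpcal1 shared 1.11% with 3 other genes, and the other 7 members shared none. Exons of Hpca overlapped those of the antisense gene Tmem54 by 57 bases. Smart-seq2 reads do not carry the strand, so reads in these stretches cannot be assigned.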

How the data were processed

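Neurons of the nucleus ambiguus labeled from the heart or larynx were sequenced as 75-base paired reads after Smart-seq2. The authors used Skewer for trimming and STAR 2.6.1d for alignment to mm10 (version and build as in the submitters' processing notes), and deposited raw read counts per gene and neuron. The program and annotation used for counting are not given in the sources used here. The deposited annotation of target and assigned cluster was used as given. A deposited table named CPM was not used, since its columns do not sum to 1000000. The study's methods state a minimum of 500000 aligned reads and a maximum of 1800 counts of Apoe per neuron. No deposited neuron had under 500000 counts, and 39 of 203 had over 1800 counts of Apoe (11 ACP, 28 ACV, 0 Larynx). No 2 neurons had identical counts.

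Counts of each neuron were divided by its total without Rn45s and scaled to 1000000 (CPM). Types were compared by the log2 ratio of mean CPM plus 1, over genes found in at least 10% of either type's neurons, and a ratio of at least 2-fold was counted. Spreads are SDs over neurons, shares have exact Clopper-Pearson intervals of 95%, and PCR reads without molecular identifiers are not independent molecules. Since no mouse, plate or other replicate is given for a neuron, no test was made. The study compared neurons by a rank sum test, which was not used for that reason. The members and lists were chosen with earlier results of these data known. Genes named beside the members were the 3 most correlated with each member read in at least 50% of neurons and, from each fixed list, the 3 largest folds per comparison with a mean of at least 10 CPM. Calm2 and other list genes given for context beyond that rule, and values of named genes in the types outside their comparison, were chosen after their values were seen.

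Alternatives were totals with Rn45s, TMM factors of edgeR 4.0.16, size factors of DESeq2 1.42.0, a pseudocount of 0.1, a detection minimum of 25% or none, summed counts, medians, thinning to 200000 counts, a depth minimum of 400000 counts, an Apoe maximum of 900 counts, leaving out the highest neuron, and folds of 1.5 and 4. The limit of 1800 counts of Apoe, a second draw of the thinning and the 2 farthest neurons left out of the within-type correlations were added after the data were seen. The ratio and thinning steps were tested on simulated counts. Exon lengths, overlaps and 75-base stretches came from GENCODE annotation of GRCm38, the build of mm10. Python 3.11.15, numpy 2.4.6, pandas 2.3.3, scipy 1.17.1, matplotlib 3.10.9 and R 4.3.3 were used.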

Additional observations from a re-analysis of the deposited data

How the results depend on the processing

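Of the 9 member ratios at 2-fold or more, 5 stayed past 2-fold in the same direction under every alternative set out for it: Calb1 in ACP over ACV and over Larynx, Vsnl1 in ACP over ACV and in Larynx over ACV, and Necab1 in ACV over ACP. None of the 9 changed sign. The 3 ratios of Pvalb were 0.00 where medians were compared, since the median was 0 in each type, and Pvalb in ACP over ACV was not counted at a detection minimum of 25%. For ACP over Larynx it was also under 2-fold when thinned (-0.73, and -0.99 in a second draw), in neurons with at least 400000 counts (-0.96) and with Rn45s in the totals (-0.74). Hpcal1 in Larynx over ACP was under 2-fold with Rn45s in the totals. That scaling moved the median log2 ratio of all genes to 0.52 for ACP over Larynx and 0.45 for ACV over Larynx. It took the share of genes at least 2-fold higher in ACP than in Larynx to 19.6% and of those higher in Larynx to 3.02%, and for ACV over Larynx to 18.5% and 4.52%. Of the 21 ratios under 2-fold, 12 stayed under it throughout and 8 had another sign or 0 under at least 1 alternative.

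The number of members past 2-fold was 4 between ACP and ACV. Shares in parentheses below are of all genes at least 2-fold higher in the first and in the second type at that setting. With medians (9.72% and 6.09%), summed counts (7.23% and 5.02%) and at most 900 counts of Apoe (12.2% and 9.70%) the number was 5. At a detection minimum of 25% (6.07% and 4.03%) it was 3. At 1.5-fold it was 5 and at 4-fold 1, and no share of all genes is given for other folds. It was 3 between ACP and Larynx (8.09% and 10.1%), against 5 with medians (15.4% and 7.099%) and 5 with summed counts (7.08% and 9.77%). At 1.5-fold it was 6 and at 4-fold 1. It was 2 between ACV and Larynx (7.87% and 11.8%), against 4 at 1.5-fold. With summed counts (6.88% and 12.97%) and with at most 900 counts of Apoe (9.57% and 16.2%) it was 3. Summed counts weight neurons by depth, and the causes of these changes in number were not tested. With at most 1800 counts of Apoe the number was 4 between ACP and ACV (10.4% and 5.97%). It was then 4 between ACP and Larynx (8.54% and 10.97%) and 3 between ACV and Larynx (7.45% and 14.98%). No paired analysis was possible because the neurons carry no replicate number. Thinning to 200000 counts moved the shares of neurons with a read unevenly. The share was 30.2% in place of 47.2% for Necab1 in ACP and 77.6% in place of 90.8% for Vsnl1 in ACV. For Pvalb in ACP it was 11.3% in place of 15.1%, and for Calb1 in ACP it stayed at 77.4%.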
